A study of Arabidopsis thaliana with 12 samples.

Results

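Plants in strong light make more superoxide and hydrogen peroxide than in dim light, in part at the photosystems, and remove both with a chain of enzymes. Superoxide dismutases turn superoxide into hydrogen peroxide, peroxidases and peroxiredoxins reduce the peroxide, and ascorbate serves as an electron donor for part of that work. Transcripts of 3 genes of this chain are described here, 1 from each step. CCS (AT1G12520) encodes the chaperone that loads copper into the copper/zinc superoxide dismutases. AT3G52960 encodes the plastid peroxiredoxin PRXIIE, a thiol peroxidase. GLDH (AT3G47930) encodes the mitochondrial dehydrogenase of the last step of ascorbate synthesis. The genes were found by symbol or locus in the annotation of the array, where each had 1 feature naming that gene alone. They are 3 of the 692 features that name a single gene, and of 3439 array features in all.

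Total RNA of Arabidopsis thaliana wild type, ecotype Columbia 0, was measured on expression arrays in 12 samples. Samples 1 to 6 of normal light came from plants grown at 80 µE and carry 0 h in their titles, and samples 1 to 6 of high light came from plants exposed to 1000 µE for 1 h. No sample is labelled as kept at 80 µE for that hour, so light and elapsed time cannot be told apart. The labels name no tissue, plant age, array or batch. Nothing in them says that a group was drawn from separate plants or cultures, and p-values then cover only sample-to-sample variation, part or all of which may be technical.

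As deposited, the values are linear intensities in an arbitrary unit, with a lower limit of 0 and an upper limit just under 100. Normal light arrays had medians of 0.115 to 0.130, against 0.338 to 0.357 for the high light arrays. They also held more exact zeros, 396 to 470 features each, against 167 to 209. A rise in deposited intensity was therefore common: the median feature stood 1.47 higher in high light on the log2 scale. Changes are given on that scale as deposited, and after quantile normalisation, which gives all arrays 1 distribution and left the median feature at 0.16. Samples 1 and 2, 3 and 4, and 5 and 6 of a group were more alike (r from 0.942 to 0.971 across features, with log2 values floored at an intensity of 0.05) than other samples of a group (0.899 to 0.942). Adjusted p-values with these neighbours averaged, 3 against 3, are given beside the main ones. None of the markers listed for green leaf, root and pollen (3 genes each) was measured by a feature of its own, so the source tissue was not checked.

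The 3 genes did not move together. PRXIIE rose, GLDH fell, and CCS did not pass the test. A rise was called for 15.8% of all features and a fall for 22.0% (limma on quantile-normalised log2 values, Benjamini-Hochberg adjusted p under 0.05 over all 3439 features). As deposited, a rise was called for 49.4% of features and a fall for 5.64%, so on that scale a rise is close to the common behaviour of a feature and a fall is not. Under each of 4 scalings (quantile, deposited, common median and cyclic loess), 313 features (9.1%) were called higher and 182 (5.29%) lower. PRXIIE was among those called higher and GLDH among those called lower. In RNA of whole samples, fewer cells of a type and less RNA per cell cannot be told apart.

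**Figure D1:**
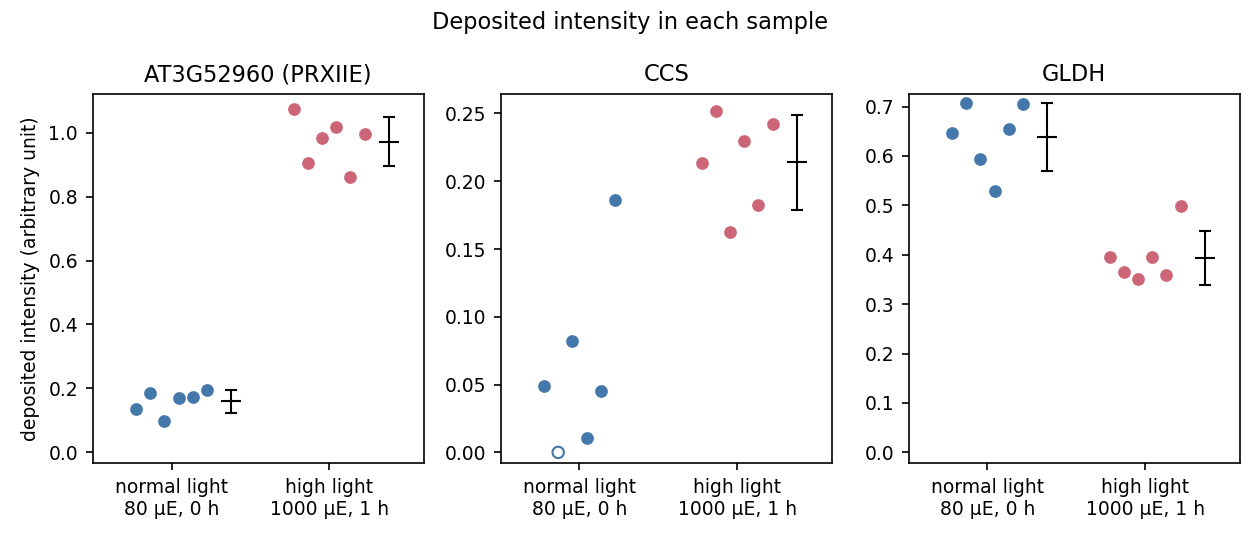
Deposited intensity (arbitrary linear unit) of the 3 genes in each sample, with points ordered by sample number from left to right. Black marks give mean ± SD (n = 6), left out for CCS in normal light, where the open point is the sample listed at 0. PRXIIE lies between 0.0977 and 0.196 in normal light and reaches 0.860 or more in every high light sample, GLDH moves the other way, and the groups of CCS overlap.

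The copper chaperone stands at the superoxide step. The deposited intensities of CCS in normal light were 0.0491, 0, 0.0819, 0.0108, 0.0455 and 0.186 in samples 1 to 6. In high light they were 0.214, 0.252, 0.163, 0.230, 0.182 and 0.242. Normal light samples were low and scattered, with sample 2 listed at 0, while sample 6 lay above high light samples 3 and 5, so the groups overlapped.

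The mean of CCS as deposited was 3.43 times as high in high light with the 0 counted as 0, and 5.71 times without normal light sample 6. Over the 3376 features with a mean above 0 in both groups, 67.0% had a smaller ratio of means than CCS and 33.0% a larger one, around a median of 1.20 on the log2 scale. The CCS ratio was 1.78 on that scale. The deposited means differed by an exact permutation test that counts the 12 samples as separate (2-sided p = 0.0065). That test was not run with neighbouring samples averaged, where 3 against 3 cannot give a p under 0.10. It also does not set the gene against the shift of the other features.

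Relative to the other features of the array CCS showed no detectable change. Its percentile rank among the 3439 features was 29.1, 5.76, 38.3, 16.6, 25.9 and 59.7 in normal light and 31.6, 36.3, 25.4, 35.9, 29.8 and 38.2 in high light. The high light ranks lay inside the normal light range, and the means, 29.2 and 32.9, did not differ beyond that spread (exact permutation test, 2-sided p = 0.66). After quantile normalisation the log2 change of CCS was 2.36 (SE 2.24, 95% interval -2.58 to 7.30, limma adjusted p = 0.42, and 0.46 with neighbouring samples averaged), a size set by the value that stands in for the 0. With intensities under 0.05 raised to 0.05 it was 0.29 (SE 0.385, adjusted p = 0.56), and without normal light sample 2 it was 0.055. As deposited the log2 change of CCS was 4.11 (SE 2.07, limma adjusted p = 0.11, and 0.15 with neighbours averaged), and none of the 4 scalings called it. With the floor of 0.05, chosen after the values were seen, the deposited change was 1.64 (SE 0.315, adjusted p = 6.4e-04). On the deposited scale that floor gives normal light samples 1, 2, 4 and 5 the same value, which takes away the scatter among them. Of the limma settings run, only the deposited scale with that floor gave a call for CCS. In limma, samples were left out 1 at a time only after quantile normalisation.

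**Figure D2:**
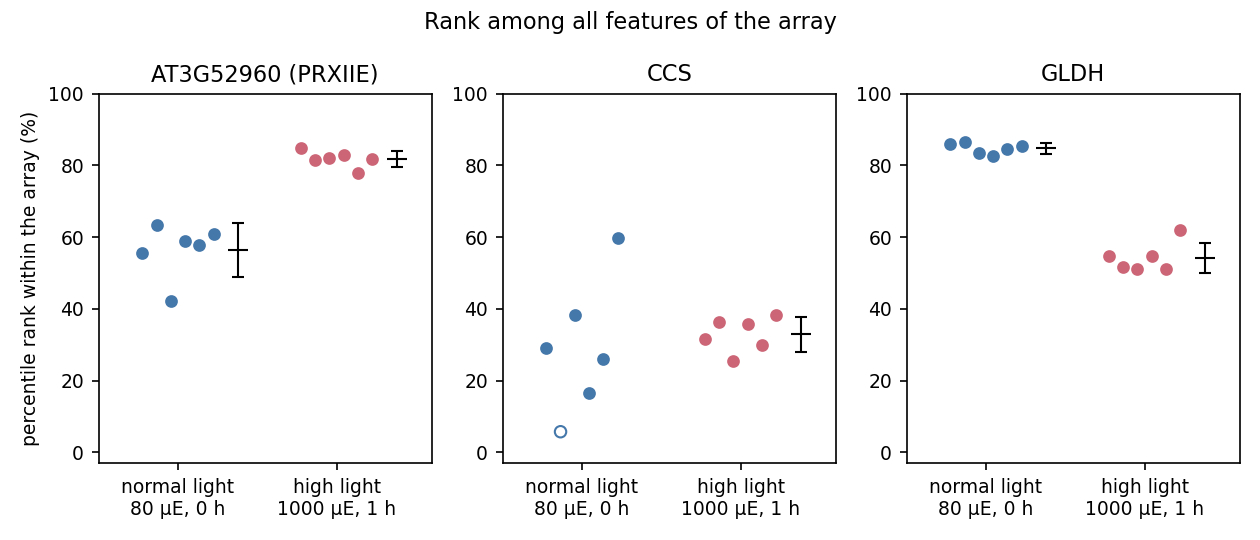
Percentile rank of the 3 genes among the 3439 features of the same array, in each sample, with points ordered by sample number. Black marks give mean ± SD (n = 6), left out where a sample is listed at 0 (open point). PRXIIE goes from a mean rank of 56.4 to 81.8, GLDH from 84.7 to 54.2, and the ranks of CCS in high light lie inside those of normal light.

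At the peroxide step, AT3G52960 (PRXIIE) was higher in every high light sample than in any normal light sample. This peroxiredoxin of the plastid stroma reduces hydrogen peroxide and organic peroxides. Its deposited intensities were 0.136, 0.185, 0.0977, 0.169, 0.172 and 0.196 in normal light samples 1 to 6. They were 1.07, 0.904, 0.982, 1.02, 0.860 and 0.996 in high light samples 1 to 6. The lowest high light sample, 5, stood far above the highest normal light sample, 6, and normal light sample 3 was the lowest of all. A gap of this kind, with higher values in high light, was found for 44.0% of all features as deposited.

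The mean of PRXIIE as deposited was 6.10 times as high in high light, and from 5.66 to 6.39 times with 1 sample left out. On the log2 scale this ratio was 2.61, and 15.2% of the 3376 features had a larger one. The SD between samples was 0.0363 in normal light, or 22.8% of the mean, and 0.0774 in high light, or 7.96% of the mean.

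The rise of PRXIIE was smaller, but past the threshold, once arrays were brought to 1 distribution. Quantile-normalised intensities of 0.187 to 0.353 in normal light stood against 0.606 to 0.881 after high light. The log2 change was 1.36 (SE 0.160, 95% interval 1.01 to 1.72, limma adjusted p = 6.5e-05), and with the neighbouring samples averaged the adjusted p was 0.015. It was 60th by size among the 126 single-gene features called higher. Its rank within the array went from 56.4 ± 7.45 to 81.8 ± 2.31 (SD, n = 6), from 42.3 to 63.4 in the normal light samples and from 77.9 to 84.9 in the high light samples. An exact permutation test of the ranks gave a 2-sided p of 0.0022, the smallest that 6 against 6 samples allow.

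GLDH, at the ascorbate step, was the gene of the 3 that was lower in high light. The enzyme sits at the inner mitochondrial membrane, passes electrons to cytochrome c as it makes ascorbate, and is also needed for the assembly of respiratory complex I. Deposited intensities of GLDH were 0.647, 0.707, 0.593, 0.529, 0.654 and 0.706 in normal light samples 1 to 6. In high light samples 1 to 6 they were 0.395, 0.365, 0.351, 0.395, 0.359 and 0.499. High light sample 6 was the highest of its group and still lay below normal light sample 4, the lowest of the other, so the groups did not overlap. Lower deposited values in high light without overlap were found for 3.98% of all features.

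The mean of GLDH went from 0.639 ± 0.0687 to 0.394 ± 0.0547 in deposited intensity (SD, n = 6), to 0.616 of its level in normal light. On the log2 scale the deposited values fell by 0.70 (SE 0.127, limma adjusted p = 8.6e-04), with an adjusted p of 0.044 when neighbouring samples were averaged. Of the 3376 features, 7.08% had a lower ratio of means than GLDH. Its fall thus went against the shift of the median feature in deposited intensity. Array means differed less between the groups than array medians did, 0.850 to 0.905 against 1.01 to 1.06. The upward shift was therefore not equal at all intensities, and the shift among features as bright as GLDH was not tested.

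Relative to the other features the fall of GLDH was larger. After quantile normalisation its intensities of 0.761 to 0.984 in normal light stood against 0.244 to 0.337 after high light, a log2 change of -1.71 (SE 0.114, 95% interval -1.96 to -1.46, limma adjusted p = 1.5e-06). With neighbouring samples averaged the adjusted p was 0.0075. GLDH was 28th by size among the 147 single-gene features called lower. In rank it went from 84.7 ± 1.54, among the brighter features of each normal light array, to 54.2 ± 4.15 (SD, n = 6), close to the middle of the high light arrays. The normal light samples ranked from 82.5 to 86.5 and the high light samples from 51.1 to 62.0 (exact permutation test, 2-sided p = 0.0022, the smallest possible).

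**Figure D3:**
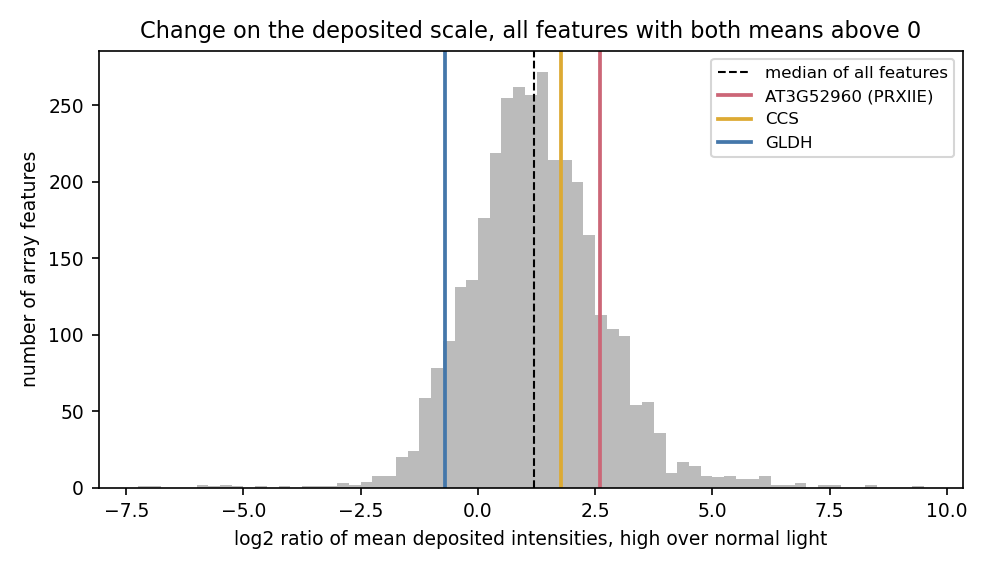
Number of array features (y axis) by log2 ratio of mean deposited intensities, high over normal light (x axis, bins of 0.25), for the 3376 features with both means above 0. Coloured lines mark the 3 genes and the dashed line the median of 1.20. GLDH (-0.70) lies left of most features, and CCS (1.78) and PRXIIE (2.61) lie right of the median.

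**Figure D4:**
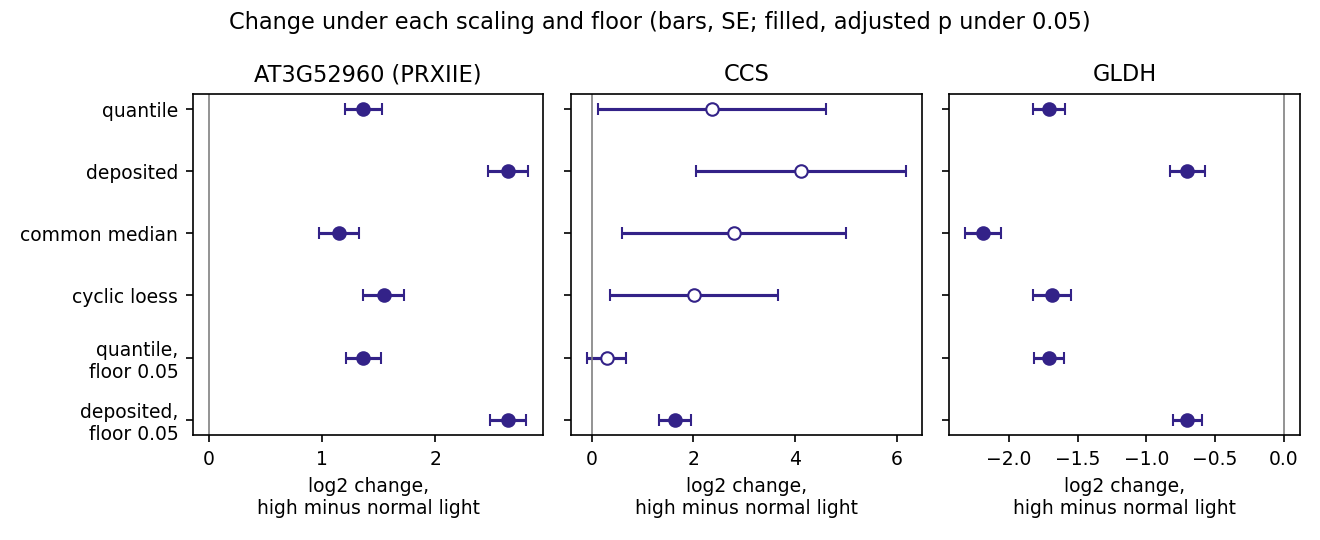
Log2 change of each gene, high minus normal light (x axis), in limma under 4 scalings and with intensities under 0.05 raised to 0.05 (y axis). Bars are SE and filled points have an adjusted p under 0.05 over all features. All points of PRXIIE and GLDH are filled, on opposite sides of 0, while CCS is filled only on the deposited scale with the floor.

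Differences between 2 genes of the same array are not moved by a factor common to that array, and they were compared for the 3 pairs. A shift that differs between dim and bright features is not removed from them. Such a shift is present here, since array medians differed more between the groups than array means. The differences show unequal change and not which of the genes changed, and levels of different features are not set against each other. The log2 difference of PRXIIE minus GLDH as deposited lay between -2.60 and -1.64 in the normal light samples and between 1.00 and 1.49 in the high light samples. It was 3.34 higher in high light (exact permutation test, 2-sided p = 0.0022, and 0.0032 adjusted over the 3 pairs). After quantile normalisation it was 3.07 higher (exact permutation test, 2-sided p = 0.0022). Because the features have separate scales, only the shift of this difference is read, and it was of the same kind in all samples.

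For CCS minus GLDH the shift was 4.81 (exact permutation test, p = 0.0022, adjusted 0.0032). Without normal light sample 2, where CCS is listed at 0, it was 2.70, and with the floor of 0.05 it was 2.35. CCS therefore lay higher relative to GLDH in each high light sample than in any normal light sample. For PRXIIE minus CCS the shift was -1.47 (exact permutation test, p = 0.86). This shift turned to 0.66 without normal light sample 2 and to 1.00 with the floor (exact permutation test, p = 0.0043). The floor sets CCS to the same value in normal light samples 1, 2, 4 and 5. These data do not settle whether PRXIIE and CCS changed unequally.

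Of 100 genes listed for superoxide, peroxide, ascorbate, glutathione, thioredoxin, tocopherol, ferritin and high light response functions, 6 had a feature of their own, a further 8 only features that name several genes, and 86 no annotated feature. Besides the 3 genes above, these were NTRC, SRX and AT2G04700. After quantile normalisation 1 of the 6 rose (PRXIIE), 2 fell (GLDH and AT2G04700) and 3 did not pass the test, beside 15.8% of all features called higher and 22.0% called lower. With so few genes these counts are not set apart from those shares, and the fall of AT2G04700 lost its call with neighbouring samples averaged. Of those listed, no ascorbate peroxidase, catalase, superoxide dismutase or glutathione reductase could be read from a feature of its own, nor could any of the 6 markers of high light response, among them ELIP1 and ZAT10.

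NTRC and SRX serve the upkeep of peroxiredoxins in the plastid. NTRC (AT2G41680), a thioredoxin reductase joined to a thioredoxin domain, passes electrons from NADPH to 2-Cys peroxiredoxins. Its deposited intensity ranged from 0.0902 to 0.228 in normal light and, without overlap, from 0.257 to 0.695 after high light. The same kind of gap was found for 44.0% of all features as deposited. High light samples 3 and 4, at 0.257 and 0.266, were much lower than the other 4, at 0.475 to 0.695. The log2 change of NTRC was 1.51 as deposited (SE 0.317, limma adjusted p = 0.0022) and 0.11 after quantile normalisation (SE 0.304, adjusted p = 0.79). With neighbouring samples averaged the call as deposited was lost (limma adjusted p = 0.060), and the adjusted p after quantile normalisation was 0.87.

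SRX (AT1G31170), sulfiredoxin, repairs over-oxidised 2-Cys peroxiredoxins. Normal light samples gave 0.0477 to 0.130 for SRX and high light samples 0.223 to 0.430, also without overlap, as for 44.0% of all features. The log2 change of SRX was 1.86 as deposited (SE 0.277, limma adjusted p = 2.2e-04) and 0.23 after quantile normalisation (SE 0.246, adjusted p = 0.47). With neighbouring samples averaged the limma adjusted p was 0.016 as deposited and 0.59 normalised. These deposited changes of 1.51 for NTRC and 1.86 for SRX stand beside 1.47 for the median feature.

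AT2G04700 had deposited intensities of 0.528 to 0.995 in normal light samples and of 0.632 to 1.07 in high light samples, with overlap, and its log2 change was 0.22 as deposited (SE 0.197, limma adjusted p = 0.34). After quantile normalisation it fell by 0.65 (SE 0.170, adjusted p = 0.011). With neighbouring samples averaged that call was lost (adjusted p = 0.13). Its change was -1.27 with columns set to 1 median (limma adjusted p = 2.7e-04) and -0.54 by cyclic loess (adjusted p = 0.037).

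Among the other single-gene features above 0 in all 12 samples, those most like each gene were taken by the root mean square difference of mean-centred quantile-normalised log2 values over the 12 samples. Among 421 candidates, AT1G71910 was nearest to PRXIIE, at 0.20, followed by AT5G17630 and AT5G63290, both at 0.29. AT1G71910 had deposited intensities of 0.0738 to 0.118 in normal light samples and of 0.718 to 0.838 in high light samples. For GLDH the nearest were AT3G12930 at 0.20, PRK, the phosphoribulokinase of the Calvin cycle, at 0.21, and AT4G30740 at 0.21. AT3G12930 had deposited intensities of 0.396 to 0.541 in normal light samples and of 0.337 to 0.436 in high light samples, with overlap. PRK had deposited intensities of 2.83 to 3.50 in normal light samples and of 1.11 to 1.17 in high light samples. No gene was close to CCS, whose nearest, AT2G03200, stood at 3.04, a distance set mostly by the sample listed at 0.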

How the data were processed

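The deposited table of intensities for 3439 array features in 12 samples was used, with groups and numbers from the titles. The steps by which the authors made the deposited intensities are not given in the sources used here, so the unit is arbitrary. Features were named from the platform annotation, updated through gene identifiers to RefSeq (TAIR10.1): 692 name 1 gene (690 matched), 870 several and 1877 are not listed. No coordinates or sequences are given, since no build or sequence was available here.

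Column medians differed by up to 3.10 times, so values were quantile-normalised. Each 0 then took the smallest positive value of the table, 9.02e-06. The groups were compared on log2 values in R 4.3.3 with limma 3.58.1 (lmFit, eBayes, 2-sided, Benjamini-Hochberg over 3439 features, threshold 0.05). The procedure was tested on simulated data. Exact permutation tests enumerate all regroupings of 6 against 6. The number of arrays limits the precision. The members and lists were chosen with earlier results of these data known. Named genes are the 3 members, all list genes with a feature of their own, and the 3 features most like each member.

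Alternatives were 3 other scalings, a filter on the dimmest 25% of features, an offset of the 10th percentile (0.0056), a floor of 0.05, array weights, trend and robust settings of eBayes, a block for sample number, neighbouring samples averaged or as a random block, and each sample left out. Sample numbers are not stated to pair the groups, and the deviations of samples sharing a number correlated at -0.0063 to 0.065.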

Additional observations from a re-analysis of the deposited data

Results flagged for a closer look

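For 2 of the 3 genes, 1 sample of a group lay far from the rest, by the distance to its nearest neighbour as a share of the full range of log2 values (Dixon's measure). Chance gives such a sample in about 1 of 20 groups. For CCS, normal light sample 2, listed at 0, was apart after quantile normalisation (0.842) and as deposited (0.713), sizes that rest on the value standing in for the 0. For GLDH, high light sample 6 was apart after quantile normalisation (0.667) and as deposited (0.662), at a deposited intensity of 0.499 against 0.351 to 0.395 in the others. It lies on the side of normal light, and without it the log2 change of GLDH was -1.78.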

How the results depend on the processing

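PRXIIE and GLDH kept their direction and their side of the threshold under every alternative run for their change, 26 each. The filter, eBayes settings, blocks, permutation test and averaging of quantile-normalised values leave the estimate as it is. In those settings only the p-value could move. The change of PRXIIE was 1.15 with columns set to 1 median, 1.55 by cyclic loess and 2.64 as deposited, and that of GLDH -2.19, -1.69 and -0.70. Leaving out 1 sample gave 1.24 to 1.43 for PRXIIE and -1.78 to -1.67 for GLDH. CCS stayed uncalled except on the deposited scale with a floor of 0.05 (1.64), a setting chosen after seeing the data, and leaving out 1 sample gave 0.055 to 3.07. Over all features, 1300 calls became 759 with neighbouring samples averaged and 2355 on the deposited scale with the floor. The split of 543 higher and 757 lower became 1698 and 194 as deposited, where the median feature shifted, 391 and 911 with columns set to 1 median, 546 and 633 with cyclic loess, and 617 and 673 with array weights.

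Within-array differences and ranks with neighbouring samples averaged (3 against 3) cannot go below an exact permutation p of 0.10: 3.34 for PRXIIE minus GLDH, 4.81 for CCS minus GLDH, and rank changes of 25.3 for PRXIIE and -30.5 for GLDH. PRXIIE minus CCS (-1.47) turned to 1.00 with the floor and ranged from -2.19 to 0.66 with 1 sample left out. The rank change of CCS (3.63) ranged from -1.06 to 9.73. Both turned without normal light sample 2, where CCS is listed at 0. The rank alternatives were chosen after seeing the data, as were the floor for the within-array differences and averaging on the deposited scale. The labels do not state that sample numbers pair the groups. With these numbers as a replicate block limma called 1195 features, with PRXIIE at 1.36 (adjusted p = 0.0027), GLDH at -1.71 (6.8e-04) and CCS at 2.36 (0.42).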
